A study of Homo sapiens with 16 samples.

Results

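The genes described here are 8 peroxins, genes whose proteins build the peroxisome, namely PEX3, PEX16, PEX19, PEX5, PEX7, PEX13, PEX2 and PEX6, taken by symbol from the 55510 gene symbols counted in each library. All 8 were among the 22007 genes that passed the filter on low counts, and each was counted at between 322 and 7300 read pairs in every library. PEX3 heads the set because its level was known to be low in treated cells at 6 h, and the other 7 are its partners in organelle assembly and protein import. For all 8, the values of the treated and vehicle libraries at 6 h are therefore a description, with no test, while the comparisons at 24 h were tested.

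Peroxisomes are single-membrane organelles that oxidise very long chain fatty acids, make ether lipid precursors and break down hydrogen peroxide. PEX19 is a soluble chaperone that carries newly made membrane proteins to PEX3, its docking partner in the peroxisomal membrane, while PEX16 helps to bring PEX3 to that membrane. Matrix enzymes made in the cytosol are then taken in by the receptors PEX5 and PEX7 at a docking complex that holds PEX13. The RING ubiquitin ligase to which PEX2 belongs marks PEX5 for release, and the ATPase PEX6 helps to pull it back out of the membrane. Loss of any of these genes causes peroxisome biogenesis disorders in people, and cells without PEX3, PEX16 or PEX19 lack recognisable peroxisomal membranes.

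The cells were CAL51, an established human breast cancer line of the triple-negative class with a near-diploid karyotype, at passage 10. They were exposed to CC-671 at 3 µM or 10 µM, or to the solvent DMSO, for 6 h or 24 h. CC-671 is a dual inhibitor of the mitotic kinase TTK and of CLK2, a kinase that phosphorylates splicing factors. Each of the 4 CC-671 groups held 3 libraries and each of the 2 DMSO groups held 2, all from 1 cell line. Poly-A RNA was sequenced in strand-specific paired-end libraries. The labels call the replicates biological without saying how the cultures were kept apart, so the spread behind each p-value may be technical.

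Library depth at genes ran from 104609173 to 123789361 read pairs. The epithelial markers KRT8, KRT18, KRT7 and EPCAM summed to 1510 to 1620 CPM (read counts scaled to a common depth) in treated libraries at 6 h against 1520 CPM in both DMSO libraries, and to 1520 to 1570 CPM at 24 h against 1290 to 1320 CPM. The mesenchymal marker VIM rose in all 4 comparisons with DMSO, by 0.30 to 0.68 on the log2 scale, with 276 to 343 CPM in treated libraries against 208 to 234 CPM in DMSO libraries, and the hormone receptor genes ESR1 and PGR together stayed at or below 0.0611 CPM. Of 4 leukocyte markers, CD3E did not pass the filter, and the summed level was 5.73 to 7.17 CPM in treated libraries at 24 h against 12.5 to 13.3 CPM in DMSO libraries, and 10.8 to 11.8 CPM in treated libraries at 6 h against 10.1 to 10.2 CPM in DMSO libraries. PTPRC made up most of that sum and fell at 24 h, by 0.99 at 3 µM and 1.26 at 10 µM, while CD14, at most 2.91 CPM, rose in all 4 comparisons, by 1.58 to 4.17, and LYZ, at most 0.222 CPM, rose in 3 of them. Of 4 fibroblast markers DCN did not pass, and the summed level was 222 to 237 CPM in treated libraries at 24 h against 255 to 260 CPM in DMSO libraries, and 254 to 277 CPM in treated libraries at 6 h against 210 to 216 CPM in DMSO libraries. Read pairs outside annotated exons were set against all pairs at genes, outside exons or ambiguous between genes. They made up 5.64 to 7.0% of those pairs in treated libraries and 4.26 to 4.76% in DMSO libraries. The part of these shifts in the results below was not tested. In bulk RNA, a smaller number of cells of a kind and less RNA per cell cannot be told apart.

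Among the 8 genes, PEX3 and PEX13 each start beside a tested gene that runs the opposite way (PEX5 and PEX16 do so beside AC018653.1 and LARGE2, which are not among the tested genes), and the windows around their start sites are shown because the levels of the neighbours bear on them. Each window holds 300 bases, from 250 before to 50 after the start, read on the plus strand from RefSeq (GRCh38.p14). The PEX3 window is chr6:143450555-143450854 and the PEX13 window is chr2:61017470-61017769. Capitals mark bases that also lie in a window of the neighbour, ADAT2 for PEX3 (209 bases) and PUS10 for PEX13 (212 bases). ADAT2 has 2 windows and PUS10 has 4, and the one that shares the most bases was used.
PEX3: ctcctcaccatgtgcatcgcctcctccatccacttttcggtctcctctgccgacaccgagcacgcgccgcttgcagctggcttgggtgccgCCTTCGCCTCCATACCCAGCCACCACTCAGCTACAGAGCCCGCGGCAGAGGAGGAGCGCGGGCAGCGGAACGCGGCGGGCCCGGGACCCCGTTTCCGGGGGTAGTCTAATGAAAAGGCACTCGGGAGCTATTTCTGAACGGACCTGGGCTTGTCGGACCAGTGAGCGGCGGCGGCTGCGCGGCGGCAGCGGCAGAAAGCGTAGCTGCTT
PEX13: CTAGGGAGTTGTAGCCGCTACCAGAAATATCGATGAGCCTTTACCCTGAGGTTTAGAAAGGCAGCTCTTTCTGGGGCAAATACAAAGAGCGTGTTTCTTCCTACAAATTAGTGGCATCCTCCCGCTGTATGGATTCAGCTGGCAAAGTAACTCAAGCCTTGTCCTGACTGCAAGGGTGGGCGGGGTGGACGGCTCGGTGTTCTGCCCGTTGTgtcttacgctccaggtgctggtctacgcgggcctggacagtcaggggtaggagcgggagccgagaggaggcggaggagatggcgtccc
The PEX3 window is 66.7% G and C, against a median of 64.3% over the windows of tested genes. On either strand it holds none of 6 motifs that were searched, namely the CCAAT box, the E-box CACGTG, the nuclear receptor site AGGTCA, the GC box written as GGGCGG, the ETS-type site CCGGAAG and the TATA box written as TATAAA. Of the 7 genes matched in the RefSeq table, all but PEX2, GGGCGG lies in at least 1 window of 5 genes, CCAAT in those of 3 (PEX7, PEX16 and PEX19) and CCGGAAG in those of 3 (PEX5, PEX6 and PEX16). Over 16581 windows of tested genes, these motifs lie in 63.2%, 34.3% and 14.9%. Those shares are per window, whereas PEX5, PEX7 and PEX19 could count through any of several windows, so the measures are not alike. The other 3 motifs are in no window of the 7 genes, and in 8.8% (CACGTG), 10.7% (AGGTCA) and 6.89% (TATAAA) of the windows of tested genes.

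PEX3, the membrane receptor for PEX19, was 5.99-fold lower in cells given 3 µM CC-671 for 6 h and 6.88-fold lower in cells given 10 µM than in DMSO cells. At 3 µM it stood at 3.89, 3.15 and 4.09 CPM and at 10 µM at 3.32, 2.94 and 3.42 CPM, against 22.0 and 22.4 CPM in DMSO cells. All 6 treated libraries were far below both DMSO libraries, and the treated groups overlapped each other. The log2 fold changes were −2.58 ± 0.07 at 3 µM and −2.78 ± 0.07 at 10 µM (SE), the 24th and 27th lowest of 22007 genes, values that chose PEX3 and are given without a test. By 24 h the level was 13.5, 14.2 and 13.9 CPM at 3 µM and 13.8, 13.8 and 14.8 CPM at 10 µM, against 20.1 and 20.8 CPM in DMSO cells. The treated libraries again lay below both DMSO libraries, by a smaller margin than at 6 h. PEX3 fell by 0.56 ± 0.06 on the log2 scale at 3 µM (adjusted p = 9.7e-09) and by 0.53 ± 0.06 at 10 µM (adjusted p = 1.9e-08) relative to DMSO. Adjusted p throughout is from edgeR's quasi-likelihood test with Benjamini-Hochberg adjustment over all 22007 genes, and under 0.05 it is called a change. Both doses were set against the same DMSO libraries, and the size of the fall at 24 h was not tested against that at 6 h.

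**Figure D1:**
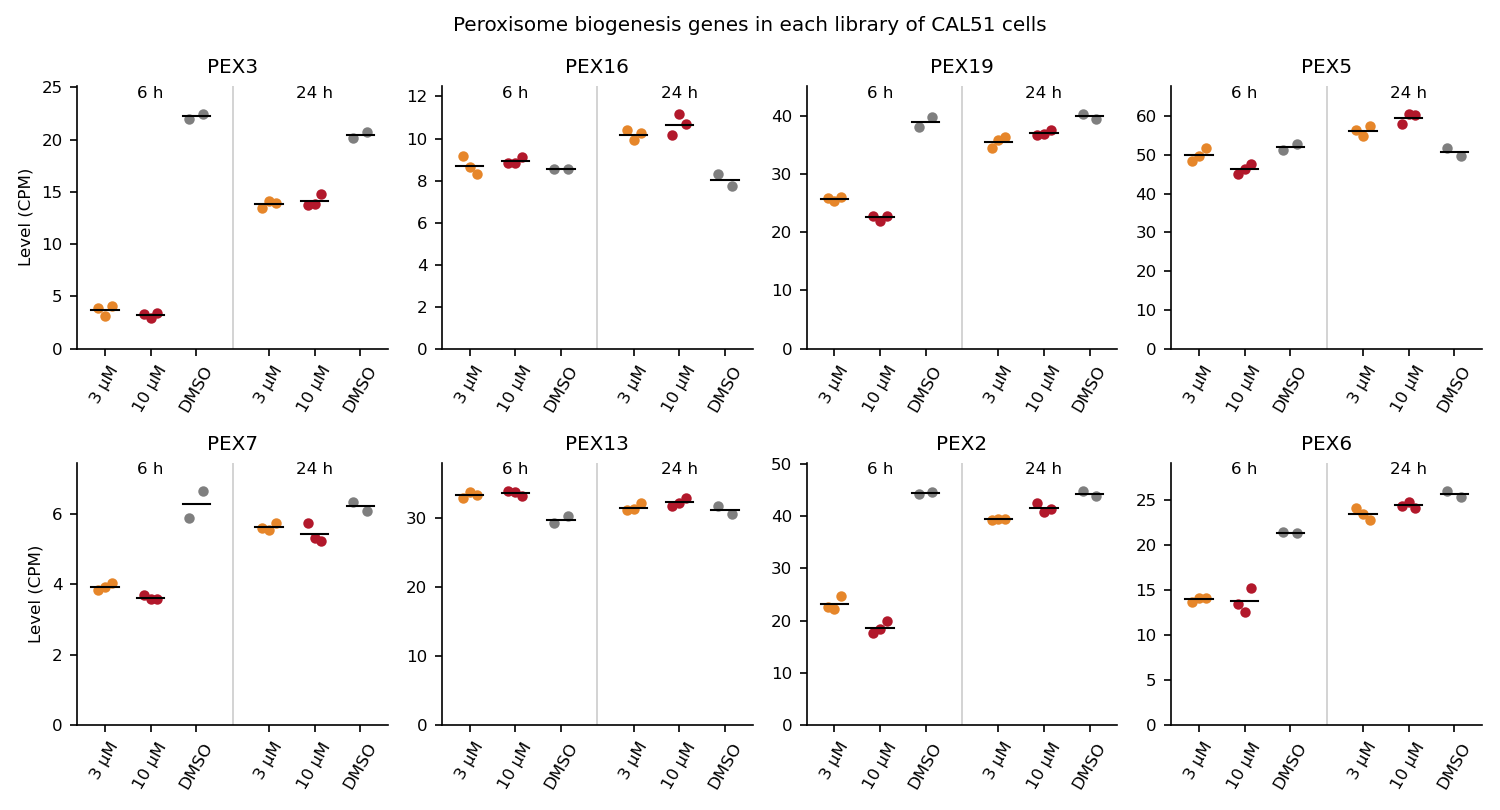
Level of each of the 8 peroxisome biogenesis genes in every library (CPM, linear axes from 0), by group, with CC-671 at 3 µM and 10 µM left of DMSO at each time. Points are libraries and bars are group means. PEX3 stands at 2.94 to 4.09 CPM in treated cells at 6 h against 22.0 and 22.4 CPM in DMSO cells, whereas PEX13 at that time stands at 32.9 to 33.9 CPM against 29.2 and 30.2 CPM.

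PEX16 and PEX19, the other genes of membrane assembly, did not follow PEX3 to the same extent. PEX16, which helps to recruit PEX3, was at 9.16, 8.64 and 8.30 CPM at 3 µM and at 8.84, 8.82 and 9.12 CPM at 10 µM after 6 h, against 8.53 and 8.54 CPM in DMSO cells. Its 6 h fold changes were close to none, at log2 0.03 and 0.06. At 24 h it was at 10.4, 9.91 and 10.2 CPM at 3 µM and at 10.2, 11.2 and 10.7 CPM at 10 µM, against 8.31 and 7.72 CPM in DMSO cells. Every treated library was above both DMSO libraries, and PEX16 rose by 0.34 ± 0.06 at 3 µM (adjusted p = 7.7e-06) and by 0.41 ± 0.06 at 10 µM (adjusted p = 4.2e-07). PEX19, the chaperone, was lower at 6 h, at 25.9, 25.3 and 26.0 CPM at 3 µM and 22.8, 22.0 and 22.8 CPM at 10 µM, against 38.1 and 39.7 CPM in DMSO cells. Its log2 fold changes of −0.59 at 3 µM and −0.79 at 10 µM came with no overlap between any of the 3 groups. At 24 h PEX19 was at 34.4, 35.8 and 36.4 CPM at 3 µM and at 36.7, 36.9 and 37.6 CPM at 10 µM, against 40.3 and 39.5 CPM in DMSO cells. The gap to DMSO was then small, with a fall of 0.17 ± 0.04 at 3 µM (adjusted p = 0.00029) and of 0.11 ± 0.04 at 10 µM (adjusted p = 0.013). GENCODE 29 places another coding locus, AL139011.2, over PEX19 on the same strand, so its reads are uncertain, and likewise a non-coding transcript, AL031320.2, over PEX3. On the other strand PEX5 is overlapped by AC018653.1, and PEX7 by AL365223.1 and RF00443. These are overlaps of whole gene spans, and shared exons were not looked up.

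The import receptors come next. PEX5, the receptor for the common carboxy-terminal targeting signal, had levels of 48.3, 49.6 and 51.6 CPM at 3 µM and 45.0, 46.4 and 47.6 CPM at 10 µM after 6 h, against 51.2 and 52.7 CPM in DMSO cells. The log2 fold changes were −0.06 at 3 µM, where 1 treated library lay above the lower DMSO library, and −0.17 at 10 µM, without overlap. At 24 h PEX5 was at 56.3, 54.9 and 57.5 CPM at 3 µM and 58.1, 60.5 and 60.3 CPM at 10 µM, against 51.9 and 49.7 CPM in DMSO cells. It rose by 0.15 ± 0.04 at 3 µM (adjusted p = 0.0013) and by 0.23 ± 0.04 at 10 µM (adjusted p = 4.5e-06), with all 6 treated libraries above both DMSO libraries. PEX7, the receptor for the amino-terminal signal carried by few enzymes, was at 3.86 to 4.04 CPM at 3 µM and 3.58 to 3.70 CPM at 10 µM after 6 h, against 5.88 and 6.67 CPM in DMSO cells. These were log2 fold changes of −0.67 and −0.79, and no treated library reached the DMSO level. At 24 h PEX7 averaged 5.63 ± 0.10 CPM at 3 µM and 5.43 ± 0.28 CPM at 10 µM (SD, n = 3 each), against 6.22 ± 0.18 CPM in DMSO cells (n = 2). It fell by 0.19 ± 0.07 at 10 µM (adjusted p = 0.012), while the difference of −0.14 ± 0.07 at 3 µM did not pass (adjusted p = 0.060).

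The docking, ligase and export genes covered the remaining range. PEX13, of the docking complex, was slightly higher in treated cells at 6 h, at 32.9 to 33.9 CPM over the 6 treated libraries against 29.2 and 30.2 CPM in DMSO cells, with log2 fold changes of 0.16 at 3 µM and 0.18 at 10 µM. At 24 h it averaged 31.4 ± 0.5 CPM at 3 µM and 32.3 ± 0.6 CPM at 10 µM, against 31.1 ± 0.8 CPM in DMSO cells, and neither log2 difference, 0.02 (adjusted p = 0.73) or 0.05 (adjusted p = 0.21), passed. PEX2, of the RING ligase, had the next lowest fold changes after PEX3 at 6 h, with levels of 22.7, 22.2 and 24.8 CPM at 3 µM and 17.6, 18.4 and 19.9 CPM at 10 µM, against 44.2 and 44.6 CPM in DMSO cells. Its log2 fold changes were −0.94 ± 0.04 at 3 µM and −1.25 ± 0.04 at 10 µM, and the 3 groups did not overlap. At 24 h PEX2 was at 39.3, 39.5 and 39.5 CPM at 3 µM and 42.6, 40.9 and 41.4 CPM at 10 µM, against 44.9 and 43.8 CPM in DMSO cells. It fell by 0.17 ± 0.04 at 3 µM (adjusted p = 0.0017), and the −0.09 ± 0.04 at 10 µM did not pass (adjusted p = 0.073). PEX6, the export ATPase, was at 12.6 to 15.3 CPM over the 6 treated libraries at 6 h, against 21.4 and 21.4 CPM in DMSO cells, with log2 fold changes of −0.61 and −0.63. At 24 h PEX6 averaged 23.5 ± 0.7 CPM at 3 µM and 24.5 ± 0.4 CPM at 10 µM, against 25.7 ± 0.5 CPM in DMSO cells. It fell by 0.13 ± 0.05 at 3 µM (adjusted p = 0.029), a call lost in 6 of 12 alternative analyses, and the −0.07 at 10 µM did not pass (adjusted p = 0.21).

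**Figure D2:**
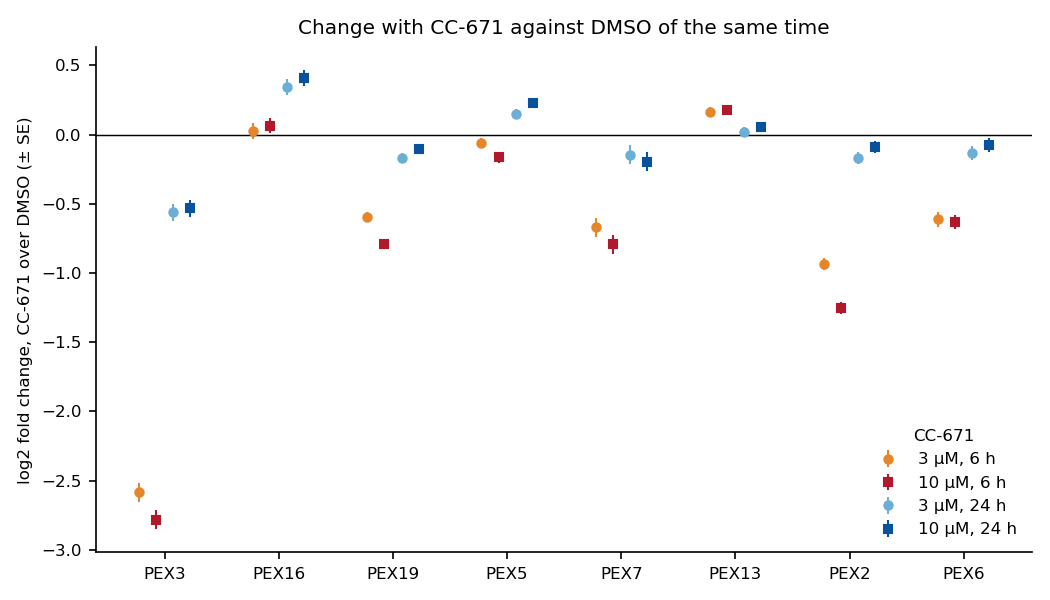
log2 fold change of each of the 8 genes against DMSO (points, with SE bars), at 3 µM and 10 µM CC-671 and at 6 h and 24 h. PEX3 is lowest in all 4 comparisons, from −2.78 at 10 µM for 6 h to −0.53 at 10 µM for 24 h, and PEX16 is highest at 24 h.

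Over the 8 genes, edgeR called 4 lower, 2 higher (PEX16 and PEX5) and 2 not changed at 3 µM after 24 h, where 60.6% of all tested genes were called, 30.9% lower and 29.7% higher. At 10 µM it called 3 lower, 2 higher (again PEX16 and PEX5) and 3 not changed, where 63.6% of all genes were called, 32.3% lower and 31.3% higher. The median log2 fold change of the 8 was −0.14 at 3 µM and −0.08 at 10 µM, against 0.00 and 0.01 over all tested genes. Without the DMSO 24 h library of replicate 1, 3 rather than 5 of the 8 were called at 10 µM. With no scaling factor the median of all genes at 24 h shifted by 0.10 at 3 µM and 0.11 at 10 µM, and the called genes were 62.9% and 62.3% higher instead of 48.9% and 49.2%. The differences of PEX2, PEX6, PEX7 and PEX19 at 24 h are of about that size, and under that setting the fall of PEX19 and the uncalled differences of PEX2 and PEX6 at 10 µM changed sign, leaving 1 of the 8 lower and 3 higher at each dose. At 6 h, the time whose values chose the set, the log2 fold changes of 6 of the 8 were below 0 and those of 2 above it at each dose, as a description.

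The doses were also set against each other. At 24 h, 0 of the 8 passed between 10 µM and 3 µM by edgeR or by DESeq2, where 6.35% of all tested genes did by edgeR, and 1 of the 8, PEX5, had an unadjusted p under 0.05. A fit of only those groups called 2 of the 8, PEX2 and PEX5. For PEX5 the difference was 0.08 (95% interval 0.02 to 0.15, adjusted p = 0.14). The difference for PEX3 was 0.03 (95% interval −0.09 to 0.14, adjusted p = 0.85). The intervals of all 8 lay between −0.17 and 0.17. At 6 h, as a description, PEX2 was 0.32, PEX3 0.20 and PEX19 0.19 lower on the log2 scale at 10 µM than at 3 µM, where 24.9% of all tested genes were called. Between DMSO cells at 24 h and at 6 h, PEX6 was higher by 0.27 and PEX3 was lower by 0.12 on the log2 scale, also as a description.

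Per kilobase of exon, the 8 genes changed places. The level of PEX3 at 10 µM for 6 h was 1.32 to 1.54 CPM per kb, the lowest of the 8, below PEX7 (1.95 to 2.01) and PEX16 (2.93 to 3.03). At 3 µM for 6 h it was also the lowest, at 1.42 to 1.84 CPM per kb, below PEX7 at 2.10 to 2.20. In DMSO cells at 6 h PEX3 was the highest, at 9.91 to 10.1 CPM per kb, followed without overlap by PEX5 (9.33 to 9.60) and then by PEX2 (8.89 to 8.98) and PEX19 (8.54 to 8.91), which overlapped each other. At 24 h PEX3 was below 4 of the other genes in treated cells, at 6.06 to 6.37 CPM per kb at 3 µM and 6.20 to 6.66 at 10 µM, between PEX6 and PEX13, whereas in DMSO cells its 9.05 to 9.34 CPM per kb overlapped PEX5 at 9.05 to 9.45 and lay just above PEX19 at 8.85 to 9.03 and PEX2 at 8.80 to 9.03. Lengths are those of merged GENCODE 29 exons, so a level per length depends on which transcripts that annotation holds.

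The number of exons was set beside the values. PEX3 has 12 exons, and the 589 tested genes with 12 exons had a median log2 difference at 6 h of −0.14 at 3 µM and −0.16 at 10 µM. PEX2 and PEX13 each have 4 exons, and tested genes with 4 exons had a median of 0.15 at 3 µM and 0.15 at 10 µM. PEX2 stood at −0.94 and −1.25, and PEX13 at 0.16 and 0.18. PEX5, with 18 exons, and PEX6, with 17, stood at −0.06 and −0.61 at 3 µM. The medians of tested genes with those exon numbers were −0.198 and −0.165.

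The genes that start beside PEX3 and PEX13 were read next to them, and the differences between partners were not tested. These neighbours were chosen by position after the values were known. ADAT2, a subunit of the enzyme that converts adenosine to inosine in transfer RNA, starts on the other strand from PEX3 and shares most of its window. It averaged 14.8 ± 1.0 CPM at 3 µM and 15.4 ± 1.2 CPM at 10 µM at 6 h, against 13.8 ± 1.7 CPM in DMSO cells. None of its 4 comparisons with DMSO passed, with log2 differences of 0.10 (adjusted p = 0.23) and 0.16 (adjusted p = 0.054) at 6 h and −0.07 (adjusted p = 0.46) and 0.04 (adjusted p = 0.69) at 24 h. PUS10, a pseudouridine synthase whose gene overlaps PEX13 at its start, averaged 3.27 ± 0.12 CPM at 3 µM and 3.40 ± 0.32 CPM at 10 µM at 6 h, against 7.82 ± 0.68 CPM in DMSO cells. It fell by 1.26 ± 0.07 at 3 µM (adjusted p = 9.1e-15) and by 1.20 ± 0.07 at 10 µM (adjusted p = 1.6e-14), whereas PEX13 stood slightly above DMSO. At 24 h PUS10 rose by 0.18 ± 0.07 at 3 µM (adjusted p = 0.027) and by 0.28 ± 0.07 at 10 µM (adjusted p = 0.00072). GNMT, a glycine methyltransferase gene that overlaps PEX6 at its end on the other strand, rose by 2.14 ± 0.14 and 2.33 ± 0.14 at 6 h and by 1.53 ± 0.15 and 1.64 ± 0.15 at 24 h, at 3 µM and 10 µM (largest adjusted p = 7.2e-10). COPA lies close to PEX19 on the same strand. Like PEX19 it was lower at 6 h, by 1.13 ± 0.05 and 1.10 ± 0.05, and its 24 h differences of −0.03 and −0.02 did not pass. C11orf94, close to PEX16 on the same strand at an average log2 CPM of −0.999, rose by 1.68 ± 0.23 and 2.18 ± 0.22 at 6 h. At 24 h it rose by 1.02 ± 0.27 and 1.17 ± 0.26. Libraries were strand-specific, but the strand setting of the counter is not given in the sources used here, so reads of overlapping partners may be shared.

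**Figure D3:**
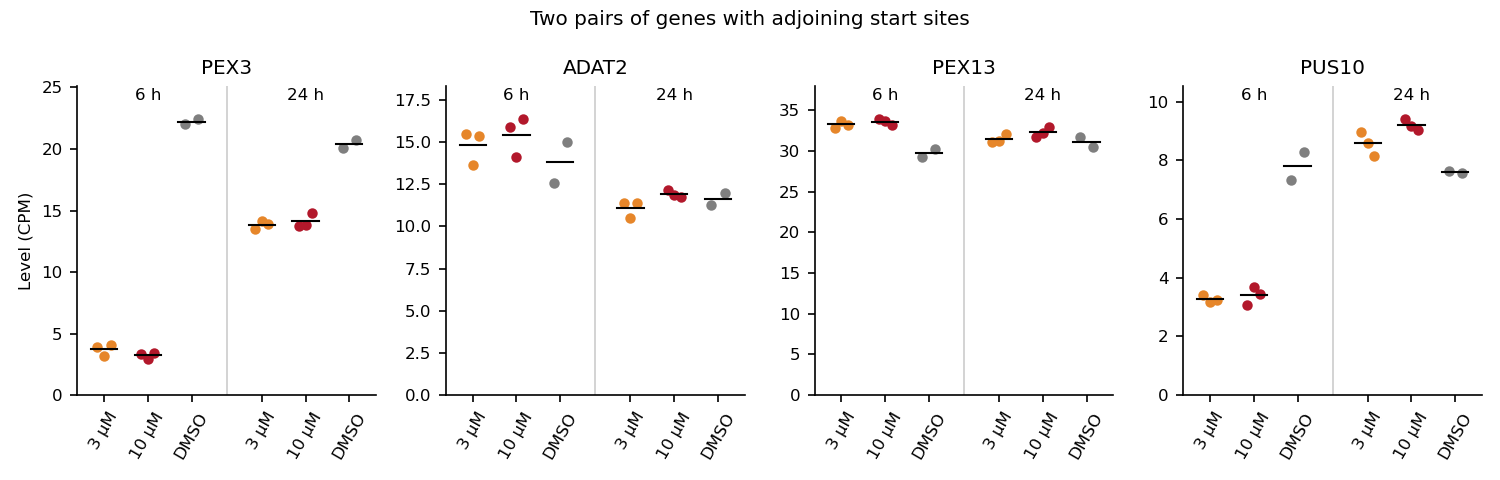
Level (CPM) of PEX3 and its neighbour ADAT2, and of PEX13 and its neighbour PUS10, in every library, with CC-671 groups left of DMSO at each time. PEX3 is low at 6 h in treated cells while ADAT2 is between 13.6 and 16.4 CPM there, and PUS10 is low while PEX13 is not.

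Of 6 other peroxins, 5 passed the filter (PEX5L did not). In each comparison with DMSO 3 were called higher, and 1 was called lower at 6 h and 2 at 24 h (1 at 24 h with no scaling factor). Over all tested genes, 63.2% were called at 3 µM and 67.6% at 10 µM after 6 h (31.6% and 34% higher), and 60.6% and 63.6% after 24 h (29.7% and 31.3% higher). PEX26, which anchors PEX6 to the membrane, rose by 0.58 ± 0.03 at both doses at 6 h and by 0.45 ± 0.03 at 3 µM and 0.51 ± 0.03 at 10 µM at 24 h. PEX11A, of a family that elongates the membrane before division, rose by 0.85 ± 0.09 at both doses at 6 h, and by 0.87 ± 0.09 at 3 µM and 0.97 ± 0.09 at 10 µM at 24 h. PEX11G, of the same family and counted at under 2 CPM, fell by 0.99 ± 0.14 at 3 µM and by 1.13 ± 0.14 at 10 µM at 24 h, and at 6 h by 0.41 ± 0.14 at 3 µM, where the groups overlapped and DESeq2 made no call (adjusted p = 0.056), and by 0.49 ± 0.15 at 10 µM. PEX14, the partner of PEX13 in the docking complex, rose by 0.37 ± 0.04 at both doses at 6 h and by 0.12 ± 0.04 and 0.11 ± 0.04 at 24 h. PEX10, of the RING ligase with PEX2, fell by 0.14 ± 0.03 and 0.17 ± 0.03 at 24 h, and its differences at 6 h of −0.04 and −0.05 did not pass. The small 24 h changes of PEX10 and PEX14 lie close to the shift that scaling makes at that time.

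Beyond the peroxins, 35 of 38 listed peroxisomal genes passed the filter. At 6 h, 16 fell and 9 rose at 3 µM, and 19 fell and 9 rose at 10 µM, with medians of −0.17 and −0.22. At 24 h, 18 fell and 7 rose at 3 µM, and 21 fell and 6 rose at 10 µM, with medians of −0.12 and −0.16. With no scaling factor the 24 h counts were 14 falls and 9 rises at 3 µM and 15 falls and 11 rises at 10 µM. The share of all tested genes called lower was 31.6% and 33.6% at 6 h and 30.9% and 32.3% at 24 h. The 18 genes of fatty acid oxidation held 10 falls and 4 rises at 3 µM and 12 falls and 4 rises at 10 µM after 6 h. Their largest changes were in EHHADH, the bifunctional enzyme (falls of 0.93 ± 0.05 and 1.16 ± 0.05), HACL1, which shortens hydroxylated acids (falls of 0.94 ± 0.04 and 0.96 ± 0.04), and ACOX3, an acyl-CoA oxidase (falls of 0.88 ± 0.05 and 0.87 ± 0.05). At 24 h, 7 of the 18 fell and 3 rose at 3 µM, 10 fell and 3 rose at 10 µM (6 and 6 with no scaling factor), and EHHADH and ACOX3 were still lower by 0.49 to 0.57 while HACL1 fell by 0.12 at both doses, calls lost with no scaling factor. Of the 5 membrane transport and contact genes tested, 1 fell and 1 rose at 6 h and 4 fell and 1 rose at 24 h, at either dose. At 3 µM after 24 h, 2 of those falls were called by DESeq2 and 2 with no scaling factor (SLC25A17 and PXMP2 were lost), and with no scaling factor 2 genes rose at 6 h. ABCD3, a transporter of fatty acyl-CoA, fell by 0.60 ± 0.04 at 3 µM and 0.78 ± 0.04 at 10 µM after 6 h, and by 0.34 ± 0.04 and 0.39 ± 0.04 after 24 h. PXMP4, a peroxisomal membrane protein, fell by 0.37 ± 0.08 at both doses after 24 h, and its differences at 6 h of −0.09 and −0.18 did not pass. PXMP2, a membrane channel, fell by 0.20 ± 0.09 at 3 µM and by 0.48 ± 0.09 at 10 µM after 24 h.

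Ether lipid synthesis starts in the peroxisome and depends on import by PEX7 and PEX5. Of its 4 genes, 3 fell at 3 µM and 4 at 10 µM after 6 h, and 2 fell at each dose after 24 h, beside 31.6% and 33.6% of all tested genes called lower at 6 h and 30.9% and 32.3% at 24 h. AGPS, whose enzyme is a PEX7 cargo, fell by 0.54 ± 0.04 and 0.84 ± 0.04 at 6 h, and FAR1, which makes the fatty alcohol, by 0.42 ± 0.06 and 0.73 ± 0.06, and the 24 h differences of both did not pass. GNPAT, the first acyltransferase, fell at 24 h by 0.20 ± 0.04 and 0.29 ± 0.04. Among 8 other matrix enzymes tested, 4 rose and 2 fell at each dose at 6 h, and at 24 h 3 rose and 5 fell at 3 µM and 2 rose and 5 fell at 10 µM. The shares of all tested genes called higher were 31.6% and 34% at 6 h and 29.7% and 31.3% at 24 h. The protease LONP2 fell by 0.64 ± 0.04 and 0.83 ± 0.04 and the processing protease TYSND1 by 0.66 ± 0.05 and 0.71 ± 0.05, while the polyamine oxidase PAOX rose by 0.78 ± 0.08 and 0.65 ± 0.08. At 24 h LONP2 fell by 0.60 ± 0.04 and 0.69 ± 0.04, TYSND1 by 0.42 ± 0.05 and 0.27 ± 0.05, and PAOX rose by 0.48 ± 0.08 and 0.57 ± 0.08.

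The genes that act on peroxisome number and turnover were called both ways. Over all tested genes, 31.6% were called higher and 31.6% lower at 3 µM after 6 h, and 34% and 33.6% at 10 µM. After 24 h the shares were 29.7% and 30.9% at 3 µM and 31.3% and 32.3% at 10 µM. The counts below were not tested against these shares. Of 4 division genes shared with mitochondria, 2 rose and 1 fell at each dose after 24 h, and 3 rose and 1 fell at 3 µM and 2 rose and 1 fell at 10 µM after 6 h. The fall at 3 µM after 6 h, of DNM1L by 0.08, lost its call with DESeq2 and with no scaling factor. DESeq2 also made no call for the rise of GDAP1 there (adjusted p = 0.069), nor for that of MFF at 3 µM after 24 h (adjusted p = 0.063). GDAP1, an outer membrane fission factor, rose by 1.44 ± 0.10 at 3 µM and 1.31 ± 0.10 at 10 µM after 24 h, at 4.70 ± 0.41 and 4.31 ± 0.14 CPM against 1.73 ± 0.22 CPM in DMSO cells. The dynamin DNM1L fell by 0.26 ± 0.03 and 0.27 ± 0.03 at 24 h, and FIS1 rose by 0.12 ± 0.04 and 0.16 ± 0.04 at 6 h. Of 4 genes of ubiquitin handling or pexophagy, 1 rose and 2 fell at 3 µM after 6 h, and 2 rose and 2 fell at 10 µM. After 24 h, 2 rose and 2 fell at 3 µM and 2 rose and 1 fell at 10 µM. USP9X, a deubiquitinase that acts on PEX5, fell by 1.29 ± 0.07 and 1.06 ± 0.07 at 6 h and by 0.24 ± 0.07 and 0.29 ± 0.07 at 24 h. USP30, a deubiquitinase that opposes pexophagy, rose by 0.88 ± 0.04 and 1.06 ± 0.04 at 6 h and by 0.37 ± 0.04 and 0.44 ± 0.04 at 24 h. TRIM37, a ligase that acts on PEX5, fell by 0.33 ± 0.04 and 0.41 ± 0.04 at 6 h and by 0.14 ± 0.04 at 3 µM after 24 h. Of 6 regulators, 1 rose and 3 fell at 3 µM and 1 rose and 4 fell at 10 µM after 24 h, and 3 rose and 2 fell at 3 µM and 2 rose and 1 fell at 10 µM after 6 h. With no scaling factor 1 of the regulators fell at each dose after 24 h, and 1 rose at 3 µM and 2 at 10 µM. PPARA, the nuclear receptor that drives peroxisomal genes in rodent liver, fell by 0.29 ± 0.06 and 0.34 ± 0.06 at 6 h and by 0.45 ± 0.05 and 0.54 ± 0.05 at 24 h. TFEB, a lysosome regulator, rose by 0.50 ± 0.10 and 0.39 ± 0.10 at 24 h. PPARG rose by 0.34 ± 0.04 and 0.30 ± 0.04 at 6 h and fell by 0.12 ± 0.04 and 0.13 ± 0.04 at 24 h. With no scaling factor the 24 h falls of PPARG, USP9X and TRIM37 lost their call at each dose at which they had it.

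**Figure D4:**
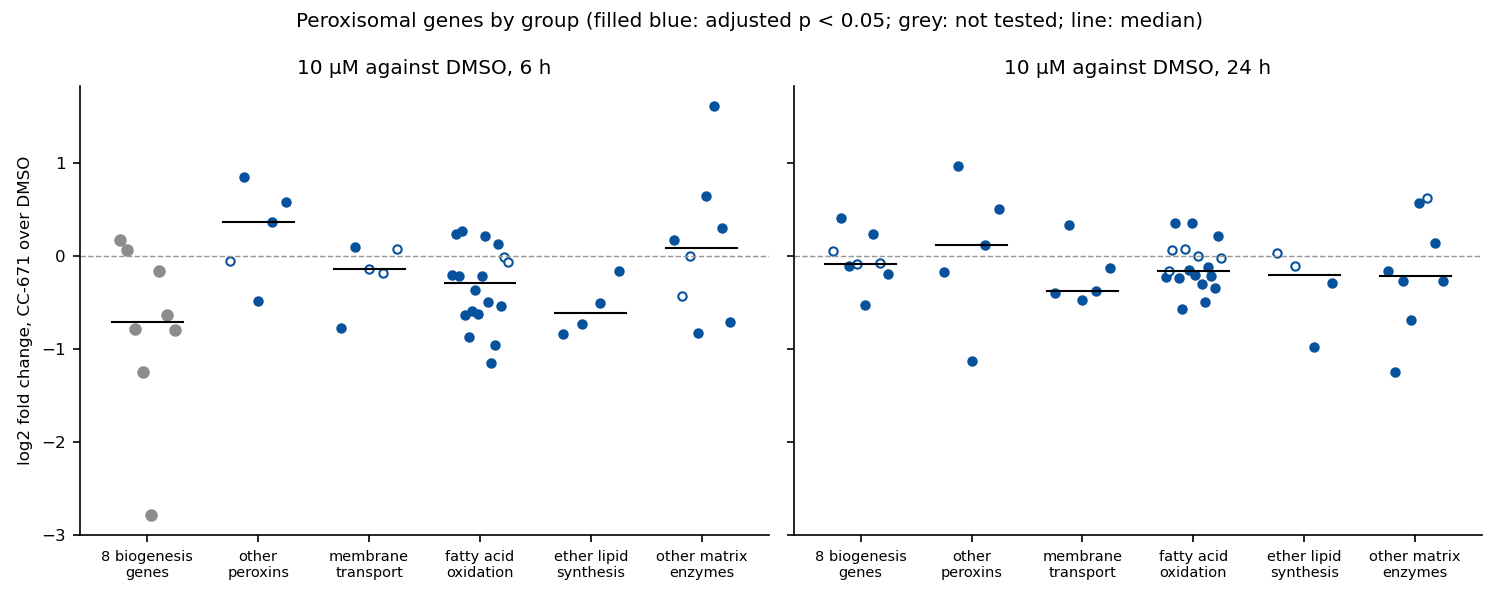
log2 fold change of each tested gene at 10 µM CC-671 over DMSO, by list, at 6 h (left) and 24 h (right), with the median of each list as a line. Filled blue points were called and open points were not, and the 8 biogenesis genes at 6 h are in grey as a description without a test. The 8 genes have a median of −0.71 at 6 h and −0.08 at 24 h, against 0.01 over all tested genes at both times.

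Genes most like PEX3 were looked up by Pearson's r of log2 CPM over the 16 libraries, among 11521 genes. Among the highest were DSCC1 (r = 0.998), VPS54 (0.998), TRAPPC13 (0.998), GUF1 (0.998) and TMX2 (0.997). The libraries fall into 6 groups that share a dose and time, so they are not independent points, and no p is given. They include the libraries at 6 h, whose values chose PEX3, and PEX3 differed most from DMSO at that time. The r of a gene is therefore largely a description of whether it was also low at 6 h. DSCC1, which helps to load the sliding clamp at replication forks, had log2 differences from DMSO of −2.89 and −3.03 at 6 h and −0.64 and −0.71 at 24 h. TRAPPC13, of a vesicle tethering complex, had −2.24 and −2.31 at 6 h and −0.48 and −0.49 at 24 h. VPS54, of a tethering complex of the Golgi, had −0.95 and −1.02 at 6 h and −0.22 and −0.23 at 24 h. Of the other biogenesis genes, and with the same limit, PEX19 (r = 0.984), PEX7 (0.982), PEX2 (0.980) and PEX6 (0.940) ran with PEX3, at the 88.3rd to 97.2nd percentile of the genes ranked. PEX5 (0.643, 66.4th percentile) and PEX16 (0.162, 51.3rd percentile) were lower, and PEX13 ran against PEX3 (−0.851, 11.5th percentile).

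**Figure D5:**
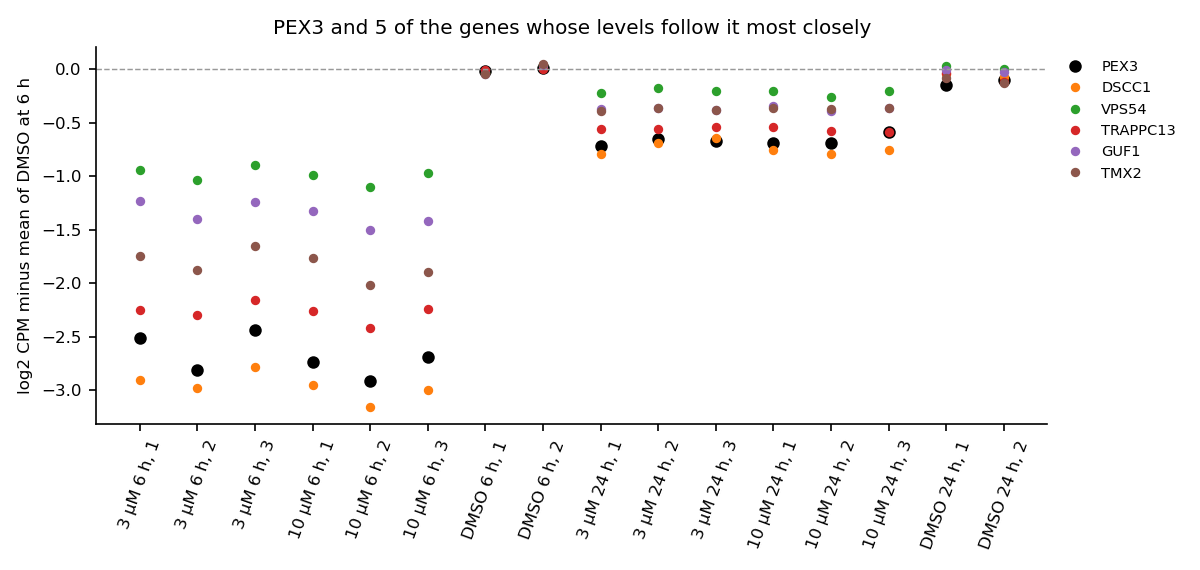
Level of PEX3 and 5 of the genes most like it by Pearson's r in each of the 16 libraries, as log2 CPM minus the mean of the DMSO libraries at 6 h (points, in group order). All 6 are low in the 6 treated libraries at 6 h, and PEX3 and DSCC1 span the widest range.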

How the data were processed

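Gene counts were read for 16 libraries of CAL51 cells. Each deposited file holds the authors' raw, unnormalised count of read pairs at each gene symbol, and STAR, HTSeq, edgeR and the build hg19 (GRCh37) are named, without settings, in the submitters' processing notes. Entries of the counter that name no gene (16.9 to 20.2% of pairs) took no part in library sizes or tests. The filter filterByExpr of edgeR 4.0.16, at a count of 10 and a total of 15, passed 22007 of 55510 symbols. After TMM scaling, a model with the mean of each of 6 groups was fitted to the 16 libraries in R 4.3.3, and 7 comparisons were made by robust two-sided quasi-likelihood F tests. P-values were adjusted by Benjamini-Hochberg over the 22007 genes of a comparison. SE values were obtained by dividing the log2 fold change by the root of its F statistic, and CPM uses TMM-scaled library sizes. The fit was also tested on simulated data drawn with this design.

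The 8 genes, the lists and the tests were chosen with earlier results of these data known. Named beyond the 8 are the other listed peroxins that passed the filter, up to 3 called genes per list with the largest absolute log2 fold change against DMSO and an average log2 CPM of at least 1, and 5 of the 6 genes with the highest r with PEX3. Some genes of the lists are not reported here and were left out of their counts. Neighbours and exon numbers come from GENCODE 29, and promoter windows from RefSeq, on GRCh38, which is not the build of the counts. Replicates differed by more than sampling noise, so none was merged. The alternatives tried were DESeq2 1.42.0, RLE scaling or no scaling factor, a filter as low as a total count of 1 or as strict as 1 CPM in 5 libraries, fits restricted to the groups being compared, the replicate number as a block, and the omission of single libraries.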

Additional observations from a re-analysis of the deposited data

Results flagged for a closer look

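For several genes every treated library stood on one side of the mean of the DMSO libraries at one time or dose and on the other side at the other, although some treated libraries of PEX5, AGPS, FIS1 and ADAT2 lay within the range of the DMSO libraries. None of these differences was tested, and the values are given without an explanation. For PEX5 the log2 effect at 24 h minus that at 6 h was 0.207 at 3 µM (0.147 against −0.0598) and 0.396 at 10 µM (0.231 against −0.165). For PUS10, the neighbour of PEX13, it was 1.43 at 3 µM (0.175 against −1.26) and 1.48 at 10 µM (0.277 against −1.20). For AGPS it was 0.871 at 10 µM (0.0312 against −0.84), and the 24 h difference did not pass. PPARG went the other way, with −0.459 at 3 µM (−0.119 against 0.340) and −0.433 at 10 µM (−0.130 against 0.303). Its 24 h falls lost their call with no scaling factor, at −0.0179 for 3 µM and −0.0192 for 10 µM. For FIS1 the 24 h effect minus the 6 h effect was −0.143 at 3 µM (−0.0245 against 0.119). At 10 µM it was −0.200 (−0.0421 against 0.158). Neither 24 h difference of FIS1 passed, and both are smaller than the shift that scaling makes at that time. For ADAT2, the neighbour of PEX3, the 24 h effect at 10 µM minus that at 3 µM was 0.105, and neither effect passed.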

How the results depend on the processing

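Against DMSO at 24 h, PEX3, PEX5 and PEX16 kept their direction and their call in all 12 alternatives at each dose. PEX3 ran from −0.593 to −0.459 at 3 µM and from −0.567 to −0.422 at 10 µM. PEX5 at 3 µM, from 0.115 to 0.248, came closest of these to losing its call. With no scaling factor, the differences at 10 µM changed sign to 0.0201 for PEX2, 0.0373 for PEX6 (neither called) and 0.00453 for PEX19 (called lower), by the shift of the median that this setting makes. With 1 library left out, the difference of PEX13 at 3 µM ran from −0.0129 (without the DMSO 24 h library of replicate 2) to 0.042, and that of PEX3 between the doses at 24 h from −0.00672 (without replicate 3 of 10 µM) to 0.0448. The calls of PEX2, PEX6, PEX7 and PEX19 were each lost under at least 1 setting, and those of PEX2 at 10 µM and PEX13 at either dose were gained under at least 1.

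The number of the 8 genes called at 10 µM against DMSO at 24 h was 3 to 5 with 1 library left out, against 5 with all. Between the doses, a fit of only the groups compared called 3420 genes at 6 h, against 5480, and 3753 at 24 h, against 1397, with 2 of the 8 (PEX2 and PEX5) called at 24 h, against 0. With 1 library left out, 654 to 858 genes were called between the doses at 24 h, and 2604 to 3579 between DMSO at 24 h and at 6 h, against 4522. The cause was not tested. Leaving out 1 DMSO library leaves 1 in that group, which is then assumed to vary like the others.

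Replicate numbers do not pair the libraries: over 36 pairs with the same number, the correlation of deviations from the group means ran from −0.0757 to 0.0808, and 5 of 16 libraries correlated best with their own number. With the replicate block, 13052 genes were called at 3 µM and 13711 at 10 µM against DMSO at 24 h, with 6 of the 8 at each dose, PEX2 at 10 µM being gained (−0.112, adjusted p = 0.027 by edgeR). Between the doses at 24 h it called 1270 genes and 0 of the 8.

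Each comparison with DMSO rests on only 2 DMSO libraries per time. Differences at 24 h of about 0.1 on the log2 scale are no larger than the shift that the choice of scaling makes.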
